A study of Mus musculus with 6 samples.

Results

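The passage from G1 into DNA synthesis is set by cyclins and by the inhibitors that hold their kinases back, and 10 genes of this switch were followed in thyroid organoids carrying an inducible Braf V637E oncogene. They were taken by name, with earlier results of these data known: the D-type cyclins Ccnd1, Ccnd2 and Ccnd3, the E-type cyclins Ccne1 and Ccne2, the CIP/KIP inhibitors Cdkn1a (p21), Cdkn1b (p27) and Cdkn1c (p57), and the INK4 inhibitors Cdkn2a and Cdkn2b (p15). The count table lists 25239 genes, of which 15256 had enough counts to be tested, and all 10 were among these. RNA came at day 31 from organoids of 1 engineered line of mouse embryonic stem cells on the G4 RosaLuc background. In it doxycycline acts on a TRE element to express the thyroid factors Nkx2-1 and Pax8. The same inserted vector holds Braf V637E, which corresponds to BRAF V600E in human tumours. Braf V637E lies there between a nuclear export signal (NES) and an ERT2 domain that 4-hydroxytamoxifen (4OHT) releases. It is driven by the bovine thyroglobulin promoter (bTg). That promoter belongs to a gene of thyroid cells, while bulk RNA also holds the other cells of the organoid. All libraries shared the genotype, 5 days of 1 µg/ml doxycycline and later 8-Br-cAMP, and 2 libraries were made per group, each with RNA pooled from at least 3 wells. The cAMP group received no 4OHT, the 4OHT group received 1 µM 4OHT for 5 days, and the PD+LY group received 1 µM 4OHT and, for 3 days, 250 nM of the MEK inhibitor PD0325901 and 5 µM of the PI3K inhibitor LY204002. The methods of the study give 4 days of 4OHT before the inhibitors in its inhibitor experiments, so the total time in 4OHT may differ between the 4OHT and PD+LY groups, and this cannot be told apart from the inhibitors. None of the 6 libraries came from cells without the transgene given 4OHT, so 4OHT itself and the released oncogene cannot be told apart either. The comparisons are 4OHT against cAMP, then PD+LY against 4OHT, then PD+LY against cAMP. They share libraries, so their values are set side by side and are not independent of each other.

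D-type cyclins bind CDK4 and CDK6 in response to mitogens, E-type cyclins bind CDK2 later in G1, and both complexes phosphorylate the retinoblastoma protein, which frees E2F factors to transcribe the genes of DNA synthesis. INK4 inhibitors block CDK4 and CDK6, while CIP/KIP inhibitors act on CDK2 complexes and also take part in assembling cyclin D complexes. In thyroid cells both the cAMP pathway and the MAPK pathway are known to feed into this switch, and p16, p15 and p21 are best known as brakes that rise when an oncogene is active.

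The libraries held 14898409 to 20637959 counts, so that 1 count was worth 0.0486 to 0.0667 CPM (counts per 1000000, here on TMM-normalized totals). Nothing in the sources says that the 2 libraries of a group came from separate differentiations, so p-values measure the spread between these libraries, which may be technical. Groups of 2 libraries that do not overlap have a two-sided exact permutation p of 0.3333, so such a separation only describes the values. All 8 thyroid markers had at least 3 counts in every library, and marker lists differed between groups. The summed level of 8 thyroid genes was 1092 to 1639 CPM in the cAMP libraries, 559.2 to 747.9 in the 4OHT libraries and 973.5 to 1963 with the inhibitors, and that of 10 mesenchymal genes was 1186 to 1289, 2236 to 2355 and 4114 to 4843. Of the 10 mesenchymal genes, 4 were called higher in 4OHT than in cAMP and 6 higher and 1 lower in PD+LY than in cAMP, and 5 of 6 epithelial genes were called lower in PD+LY than in cAMP (summed 765.3 to 805.6 against 1011 to 1091 CPM). The 8 pluripotency genes summed to 3540 to 3663 CPM in cAMP, 3972 to 4151 in 4OHT and 4060 to 4370 in PD+LY. Of these 8, 1 was called higher in 4OHT than in cAMP, and 4 higher and 2 lower in PD+LY than in cAMP. Over all libraries, 6 neural progenitor genes summed to 44.17 to 70.52 CPM and 8 endothelial genes to 197.3 to 225.5 CPM. Of 7 endothelial genes tested, 4 (Kdr, Cdh5, Tie1 and Cldn5) were called lower in 4OHT than in cAMP, with Pecam1 higher (median log2 fold change -1.47), and the same 4 were called lower in PD+LY than in cAMP (median -0.99). The 4 macrophage genes summed to 64.59 to 67.25 CPM in cAMP, 57.11 to 62.7 in 4OHT and 31.68 to 33.46 in PD+LY. Of these, Ptprc and Adgre1 were at 0 in every library. Cd68 was called lower in PD+LY than in 4OHT and in cAMP, and Csf1r was not called. In bulk RNA fewer cells of a type and less RNA per cell cannot be told apart, and the part of these shifts in any result given here was not tested.

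Cdkn1a, Cdkn2a and Cdkn2b, the inhibitors that were higher in the 4OHT libraries, differ in the sequence before their starts, and 4 stretches are printed so that these can be compared. Each is the 250 bases before a RefSeq transcription start in GRCm38.p6, 5′ to 3′ on the strand of the gene, with capitals on the motif matches described after them. Cdkn2a has 2 starts 12.4 kb apart, of which the one nearer to Cdkn2b is the start of the p19Arf transcript and the other that of p16Ink4a, and the Cdkn2b start is 16.4 kb from the nearer one.
Cdkn2b, chr4:89311033-89311282, minus strand: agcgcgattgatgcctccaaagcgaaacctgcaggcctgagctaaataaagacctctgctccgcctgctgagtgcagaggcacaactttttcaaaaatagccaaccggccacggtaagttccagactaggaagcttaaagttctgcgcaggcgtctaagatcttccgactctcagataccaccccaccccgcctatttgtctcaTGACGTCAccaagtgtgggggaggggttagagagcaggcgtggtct
Cdkn2a, start of p19Arf, chr4:89294620-89294869, minus strand: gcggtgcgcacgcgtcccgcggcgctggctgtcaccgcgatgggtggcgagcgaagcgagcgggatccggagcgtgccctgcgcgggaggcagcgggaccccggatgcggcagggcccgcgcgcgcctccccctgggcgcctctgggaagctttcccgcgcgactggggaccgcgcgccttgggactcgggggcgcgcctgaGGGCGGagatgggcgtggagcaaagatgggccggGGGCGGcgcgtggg
Cdkn2a, start of p16Ink4a, chr4:89282193-89282442, minus strand: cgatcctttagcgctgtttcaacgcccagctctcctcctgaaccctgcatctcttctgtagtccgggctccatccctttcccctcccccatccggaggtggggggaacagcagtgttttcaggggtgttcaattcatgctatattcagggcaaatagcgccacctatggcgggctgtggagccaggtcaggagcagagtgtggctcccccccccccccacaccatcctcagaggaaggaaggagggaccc
Cdkn1a, first start, chr17:29090729-29090978, plus strand: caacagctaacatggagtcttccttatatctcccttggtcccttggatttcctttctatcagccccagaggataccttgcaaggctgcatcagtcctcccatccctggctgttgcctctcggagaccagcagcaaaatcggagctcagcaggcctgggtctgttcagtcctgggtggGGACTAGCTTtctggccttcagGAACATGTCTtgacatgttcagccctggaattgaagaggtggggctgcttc

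Capitals mark matches on either strand to the cAMP response element TGACGTCA, to the AP-1 site TGANTCA, to the GC box GGGCGG and to the p53 half-site, letters that do not overlap each other in these 4 stretches. Cdkn2b held 1 cAMP response element 46 bases before its start, a motif found in 1.55% of the 32851 RefSeq promoter stretches of this length. The Cdkn2a stretch of p19Arf held GC boxes 48 and 14 bases before the start, while that of p16Ink4a held none, and 32.7% of all stretches hold one. The first Cdkn1a start had p53 half-sites 73 and 51 bases upstream, against 7.13% of stretches with at least 1. No AP-1 match lay in the 9 stretches given for 6 of the genes (Ccnd3, Ccne1, Cdkn1a, Cdkn1b, Cdkn2a and Cdkn2b), and 6.75% of all stretches hold one. The table has no entry for Ccnd1, Ccnd2, Ccne2 and Cdkn1c. These matches describe letters and not bound sites.

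In 4OHT against cAMP, 4 of the 10 genes were called higher (Ccnd3, Cdkn1a, Cdkn2a and Cdkn2b, adjusted p under 0.05 in edgeR's quasi-likelihood test) and 0 lower, where 4.04% of all tested genes were called higher and 4.35% lower. This count was 1 without cAMP library 1, 2 without cAMP library 2, 0 without 4OHT library 1 and 1 without 4OHT library 2, while over all genes the calls went from 1280 to between 216 and 597 without one of these. None of the 10 changed 2-fold as well, against 1.17% of tested genes upward and 1.51% downward. With the inhibitors added, 4 genes were called lower than in 4OHT (Ccnd1, Ccnd2, Ccne1 and Cdkn1a) and 0 higher, beside 12.1% of tested genes lower and 10.7% higher, and Ccnd1 alone of the 10 fell 2-fold or more, beside 4.9% of tested genes falling and 2.35% rising that far. Without 4OHT library 2 the 4 calls were 2. Against cAMP, the PD+LY libraries had 3 genes lower (Ccnd1, Ccnd2, Ccne1) and 2 higher (Ccnd3, Cdkn2a), beside 13.7% and 12.1% of tested genes. Without cAMP library 2 these 5 calls were 3. Ccnd1 fell and Cdkn2a rose by 2-fold or more in this comparison, where 6.24% of tested genes fell and 3.0% rose by as much. The median log2 fold change over the 10 genes was 0.11, -0.39 and 0.1 in the 3 comparisons, and over all tested genes it was -0.002, 0.008 and 0.005.

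**Figure D1:**
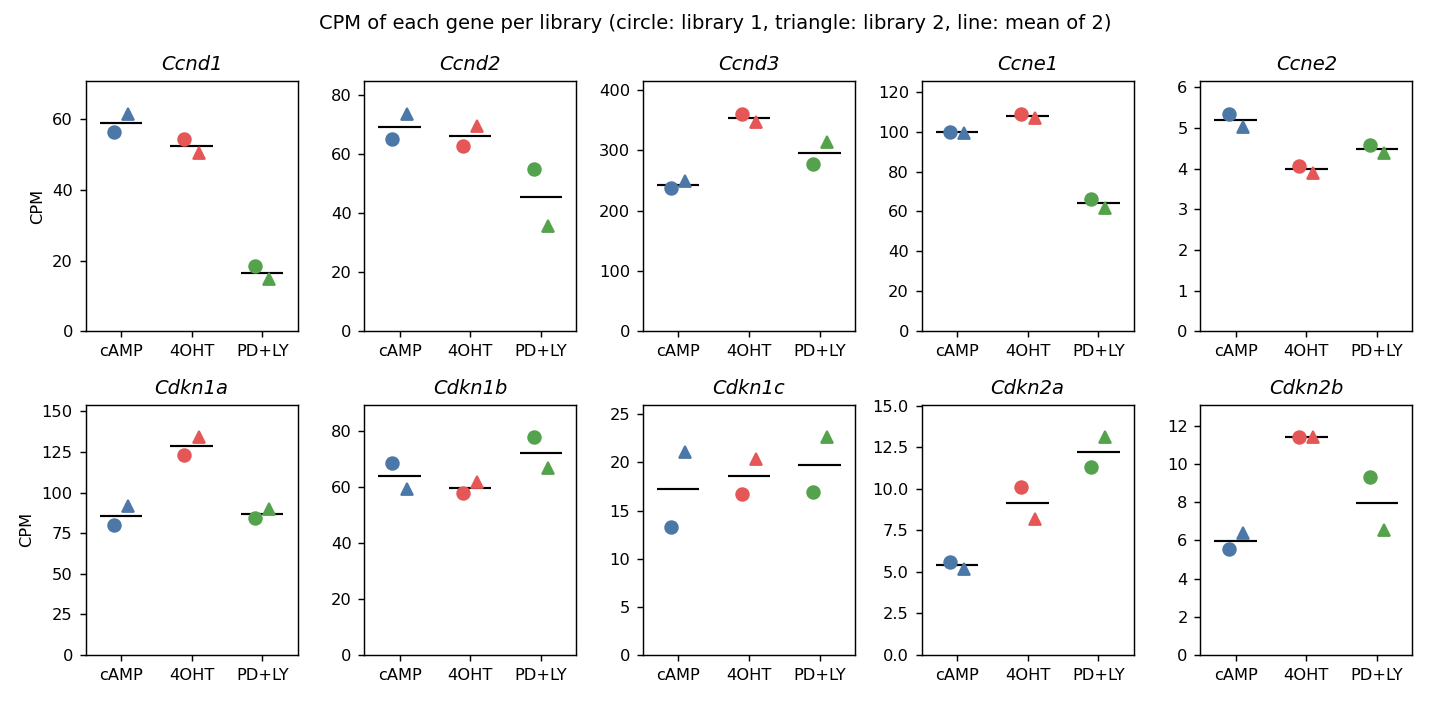
CPM on a linear axis from 0 for each of the 10 genes in the 6 libraries, with cAMP in blue, 4OHT in red and PD+LY in green, circles for library 1, triangles for library 2 and a line at the mean of the 2. Ccnd1 and Ccne1 drop in the green PD+LY points, and Ccnd3, Cdkn1a, Cdkn2a and Cdkn2b are higher in red 4OHT than in blue cAMP. Cdkn2a is highest in the green PD+LY points, and the Cdkn1c points of the 3 groups lie over each other.

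Ccnd1 encodes cyclin D1, the D-type cyclin best known as a target of MAPK signalling (chr7:144929931-144939925 in mm10, minus strand). Its level was 56.5 and 61.6 CPM in the cAMP libraries, 54.3 and 50.6 in 4OHT, and 18.4 and 14.8 in PD+LY. Both PD+LY libraries lay far under the other 4, and the 4OHT libraries lay just under the cAMP libraries without overlap. Ccnd1 fell 3.16-fold from 4OHT to PD+LY (log2 fold change -1.66, SE 0.14, adjusted p = 1.58e-05 in edgeR's quasi-likelihood test, n = 2 libraries each) and stood 3.56-fold under cAMP (log2 fold change -1.83, SE 0.14, edgeR adjusted p = 3.66e-06). From cAMP to 4OHT the log2 fold change was -0.17 with a 95% interval of -0.45 to 0.11 (edgeR adjusted p = 0.454), so a rise of more than 1.08-fold lay outside the interval of the ratio (0.731 to 1.08). The annotation puts 23.36% of the exon bases of Ccnd1 under the opposite-strand gene LTO1, and counting did not use strand. LTO1 itself had a log2 fold change of -0.29 from 4OHT to PD+LY (edgeR adjusted p = 0.261).

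Ccnd2 encodes cyclin D2 (chr6:127125162-127152193, minus strand). Its libraries read 65.0 and 73.7 CPM in cAMP, 62.8 and 69.6 in 4OHT, and 55.0 and 35.8 in PD+LY. The first PD+LY library was close to the 4OHT range and the second far under it. Ccnd2 fell 1.46-fold from 4OHT to PD+LY (log2 fold change -0.55, SE 0.17, edgeR adjusted p = 0.0375) and 1.53-fold from cAMP (-0.61, SE 0.17, edgeR adjusted p = 0.0196). Both calls rested on the second PD+LY library: without it the log2 fold changes were -0.27 (edgeR adjusted p = 0.126) and -0.33 (0.0648), and without the first they were -0.89 and -0.95. The first call was also lost without 4OHT library 1 (-0.61, edgeR adjusted p = 0.0991) or 2 (-0.47, 0.229), and the second without cAMP library 2 (-0.51, 0.112). Between 4OHT and cAMP the log2 fold change was -0.07 (95% interval -0.43 to 0.3).

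Ccnd3, cyclin D3 (chr17:47505051-47599691, plus strand), was the D-type cyclin with the highest level per kb of exon in every library. It was measured at 237 and 249 CPM in cAMP, 361 and 347 in 4OHT, and 277 and 314 in PD+LY, 3 ranges that do not overlap. Ccnd3 rose 1.46-fold from cAMP to 4OHT (log2 fold change 0.54, SE 0.09, edgeR adjusted p = 0.00479). Without 4OHT library 1 the log2 fold change was 0.52 and the edgeR adjusted p 0.0831. In PD+LY it stood 1.22-fold over cAMP (0.28, SE 0.09, edgeR adjusted p = 0.0408), a call kept in 7 of 13 other analyses and lost without either cAMP library (edgeR adjusted p = 0.217 and 0.103), either 4OHT library (0.0822 and 0.0816) or PD+LY library 2 (log2 fold change 0.19, adjusted p = 0.127). From 4OHT to PD+LY the log2 fold change was -0.26 (95% interval -0.46 to -0.06, edgeR adjusted p = 0.0605). It passed the threshold with no filter (-0.25, edgeR adjusted p = 0.0488) and with the replicate number as a block (-0.26, edgeR adjusted p = 0.0227). Without PD+LY library 2 it was -0.35.

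**Figure D2:**
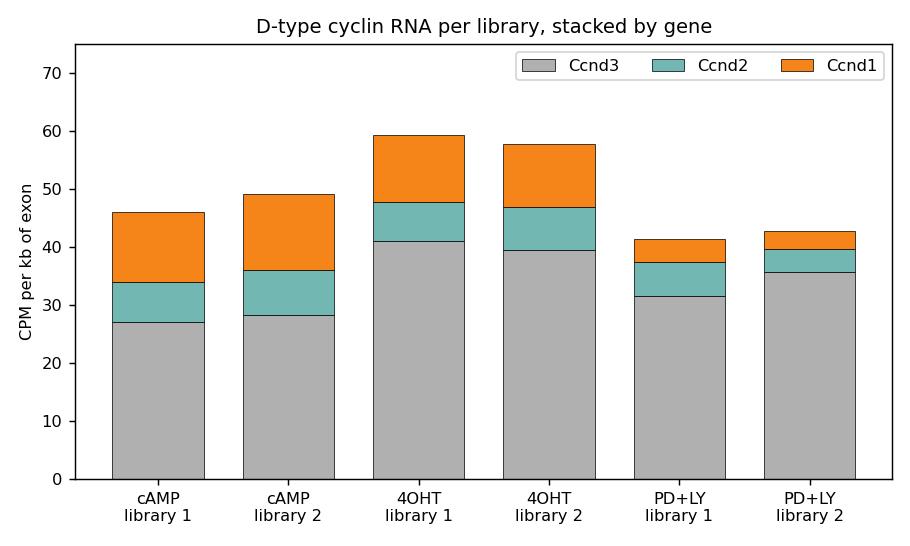
Stacked bars give the level of D-type cyclin RNA in each of the 6 libraries in CPM per kb of merged exon, on a linear axis from 0, with Ccnd3 in grey, Ccnd2 in teal and Ccnd1 in orange. The bars are tallest in 4OHT (59.3 and 57.7), and the orange Ccnd1 part shrinks from 26.1 and 26.6% of the bar in cAMP to 9.45 and 7.37% in PD+LY.

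Put per kb of exon, so that the genes can be added, the D-type cyclin sum was 46.0 and 49.3 CPM per kb in cAMP, 59.3 and 57.7 in 4OHT, and 41.3 and 42.7 in PD+LY. The 3 groups did not overlap: the mean was 47.6 ± 2.32 (SD, n = 2) for cAMP, 58.5 ± 1.16 for 4OHT and 42.0 ± 0.993 for PD+LY. The sum was 1.23-fold higher in 4OHT than in cAMP, 1.39-fold lower in PD+LY than in 4OHT and 1.13-fold lower than in cAMP, each with a two-sided exact permutation p of 0.3333, the smallest that 2 against 2 libraries allow. With the longest transcript in place of merged exons, the PD+LY sums (85.4 and 91.0) overlapped the cAMP sums (86.9 and 92.6), and the log2 difference was -0.02 in place of -0.18. By merged exons Ccnd1 made up 26.1 and 26.6% of the sum in cAMP, 19.4 and 18.6% in 4OHT, then 9.45 and 7.37% with the inhibitors. Ccnd3 made up 58.9 and 57.5%, 69.3 and 68.5%, and 76.4 and 83.7% in the same groups. The Ccnd1 share was thus 7.3 percentage points lower in 4OHT than in cAMP and 17.9 points lower in PD+LY than in cAMP (two-sided exact permutation p = 0.3333 each, the smallest possible). With the longest transcript its share was 17.4 and 17.8% in cAMP, 12.3 and 11.8% in 4OHT, and 5.75 and 4.36% with the inhibitors. The share in 4OHT was lower beside a rise of Ccnd3 from 27.7 to 40.3 CPM per kb, while Ccnd1 itself was not called between 4OHT and cAMP.

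Ccne1, cyclin E1, which drives CDK2 at the G1/S boundary (chr7:38097984-38107534, minus strand), had 100 and 99.2 CPM in cAMP, 109 and 107 in 4OHT, and 66.4 and 61.9 in PD+LY. The PD+LY libraries lay clearly under all 4 others. Ccne1 fell 1.69-fold from 4OHT to PD+LY (log2 fold change -0.76, SE 0.10, edgeR adjusted p = 0.000279) and 1.55-fold from cAMP (-0.64, SE 0.10, edgeR adjusted p = 0.00054). From cAMP to 4OHT its log2 fold change was 0.12 (95% interval -0.09 to 0.33). The calls of Ccnd1 and Ccne1 in both comparisons of PD+LY held in 13 of 13 other analyses. Ccne2, cyclin E2 (chr4:11191351-11204779, plus strand), was the least abundant of the 10 genes, at 5.35 and 5.02 CPM in cAMP, 4.07 and 3.89 in 4OHT, and 4.58 and 4.38 in PD+LY, or 61 to 103 counts per library. The 3 pairs of libraries did not overlap, yet no comparison of Ccne2 passed the test, with log2 fold changes of -0.38 (95% interval -0.89 to 0.14), 0.17 (-0.35 to 0.69) and -0.21 (-0.71 to 0.29) for 4OHT against cAMP, for the inhibitors against 4OHT and for the inhibitors against cAMP. Exons of Ints8 on the opposite strand cover 17.42% of those of Ccne2, and Ints8 was not called in any comparison.

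Cdkn1a encodes p21, the CIP/KIP inhibitor known for its induction by p53 (chr17:29090976-29100727, plus strand). It stood at 79.8 and 91.9 CPM in cAMP, 123 and 134 in 4OHT, and 84.1 and 90.1 in PD+LY. The 4OHT libraries were above all others, and the PD+LY libraries lay inside the cAMP range. Cdkn1a rose 1.5-fold from cAMP to 4OHT (log2 fold change 0.58, SE 0.11, edgeR adjusted p = 0.0067) and fell 1.48-fold from 4OHT to PD+LY (-0.56, SE 0.11, edgeR adjusted p = 0.00294). Set against cAMP, PD+LY gave a log2 fold change of 0.02, with a 95% interval of -0.21 to 0.25. The rise lost its call without cAMP library 1 (log2 fold change 0.48, edgeR adjusted p = 0.0803), 4OHT library 1 (0.65, 0.0564) or 4OHT library 2 (0.52, 0.103), and the fall without 4OHT library 2 (-0.49, 0.0627). The printed first start of Cdkn1a is the one with the p53 half-sites, but the counts do not tell its transcripts from those of a second start 2.79 kb further on. Bulk counts also do not tell in which cells Cdkn1a rose. The study stained p21 protein at later times of 4OHT and reports none in cells with Nkx2-1, with or without 4OHT. A small proportion of cells without Nkx2-1 held p21 in that staining.

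The other CIP/KIP genes showed no call. Cdkn1b encodes p27, the inhibitor of cyclin E complexes that accumulates in quiescent cells (chr6:134920401-134925513, plus strand). It had 68.3 and 59.2 CPM in cAMP, 57.7 and 61.7 in 4OHT, and 77.6 and 66.7 in PD+LY. The PD+LY libraries were above both 4OHT libraries and overlapped the cAMP libraries. The log2 fold change from 4OHT to PD+LY was 0.27 (95% interval 0.01 to 0.53, edgeR adjusted p = 0.119), and without PD+LY library 2 it was 0.38 with an adjusted p of 0.0326. Against cAMP, Cdkn1b had log2 fold changes of -0.09 (-0.35 to 0.17) in 4OHT and 0.18 (-0.08 to 0.44) in PD+LY.

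**Figure D3:**
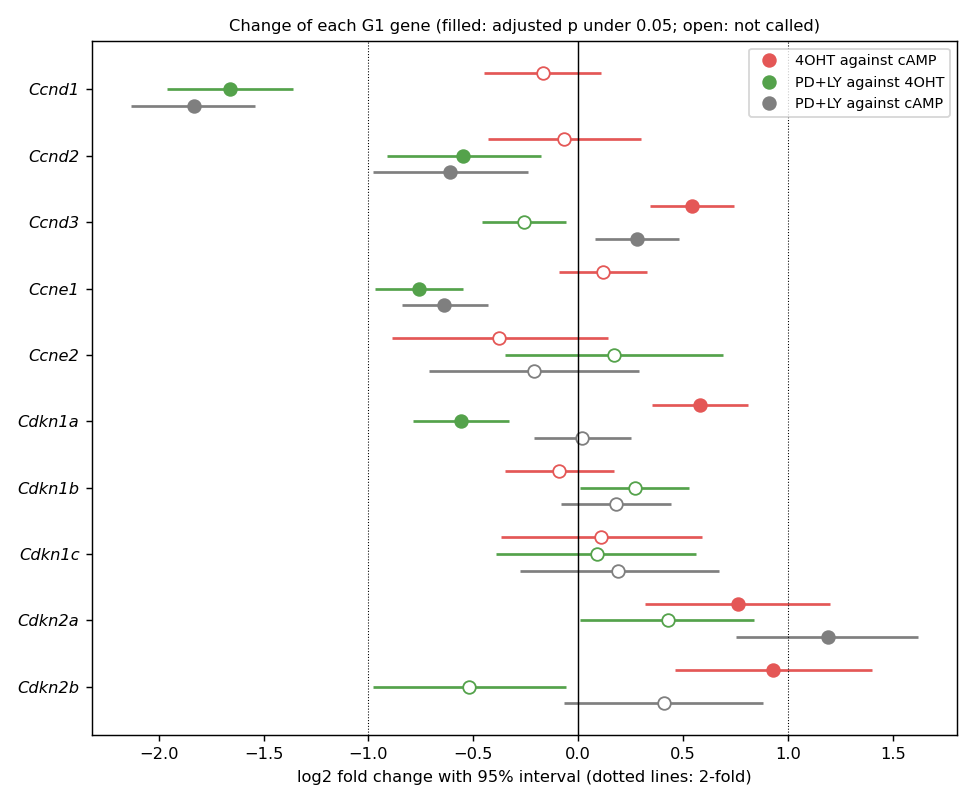
Log2 fold change with its 95% interval for each of the 10 genes, in red for 4OHT against cAMP, green for PD+LY against 4OHT and grey for PD+LY against cAMP, with filled points for an adjusted p under 0.05 in edgeR and dotted lines at a 2-fold change. Only Ccnd1 (-1.66 and -1.83) and Cdkn2a (1.19 against cAMP) have a filled point past a dotted line.

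Cdkn2a and Cdkn2b lie side by side on chromosome 4 and encode INK4 inhibitors, p16Ink4a and p15Ink4b, with p19Arf, a stabilizer of p53, read from the same Cdkn2a locus in another frame. Cdkn2b (chr4:89306299-89311039, minus strand) had 5.53 and 6.38 CPM in cAMP, 11.4 and 11.4 in 4OHT, and 9.32 and 6.57 in PD+LY, from 88 to 207 counts per library. It rose 1.9-fold from cAMP to 4OHT (log2 fold change 0.93, SE 0.22, edgeR adjusted p = 0.022). Both PD+LY libraries lay between the 4OHT and the cAMP libraries, with log2 fold changes of -0.52 against 4OHT (95% interval -0.98 to -0.06, edgeR adjusted p = 0.0943) and 0.41 against cAMP (-0.07 to 0.88, adjusted p = 0.192). The rise lost its call without any 1 of the cAMP or 4OHT libraries, at log2 fold changes of 0.83 without cAMP library 1, 1.04 without cAMP library 2, 0.93 without 4OHT library 1 and 0.94 without 4OHT library 2 and edgeR adjusted p of 0.128, 0.0599, 0.144 and 0.131. The PD+LY values turned on the library: without PD+LY library 1 the fall from 4OHT passed the test (-0.79, adjusted p = 0.0238), and without PD+LY library 2 the excess over cAMP did (0.64, adjusted p = 0.0449).

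Cdkn2a (chr4:89274471-89294653, minus strand) had 5.6 and 5.17 CPM in cAMP, 10.1 and 8.17 in 4OHT, and 11.3 and 13.1 in PD+LY, from 89 to 270 counts per library. The order of the groups was cAMP, 4OHT, PD+LY with no overlap, unlike that of its neighbour Cdkn2b. The summed mesenchymal markers given above had the order of Cdkn2a. Their genes were split from 4OHT to PD+LY: of 10, 5 were called higher, 2 lower (Pdgfrb and Twist1) and 3 not called. The pluripotency sums were also lowest in cAMP, while those of 4OHT and PD+LY overlapped. The part of either in the values of Cdkn2a was not tested. Cdkn2a rose 1.69-fold from cAMP to 4OHT (log2 fold change 0.76, SE 0.20, edgeR adjusted p = 0.0398) and was 2.27-fold higher in PD+LY than in cAMP (1.19, SE 0.20, edgeR adjusted p = 0.00112). The second call held in 13 of 13 other analyses, at log2 fold changes of 1.08 to 1.29. The first was lost without cAMP library 1 (0.81, edgeR adjusted p = 0.126), cAMP library 2 (0.71, 0.163), 4OHT library 1 (0.61, 0.303) or 4OHT library 2 (0.91, 0.102). From 4OHT to PD+LY the log2 fold change was 0.43 (95% interval 0.01 to 0.84, edgeR adjusted p = 0.129). Counts per gene symbol cannot tell p16Ink4a from p19Arf transcripts. The INK4 family has 2 further genes, and Cdkn2d (p19Ink4d) was called higher in 4OHT than in cAMP (0.71, SE 0.13, edgeR adjusted p = 0.0081) and in PD+LY than in cAMP (0.62, SE 0.13, adjusted p = 0.00502). Cdkn2d had 18.4 and 18.4 CPM in cAMP, 30.6 and 29.4 in 4OHT, and 26.5 and 30.0 in PD+LY. Without cAMP library 1 or either 4OHT library the first call of Cdkn2d was lost, with edgeR adjusted p up to 0.0976. With Cdkn2c (p18, log2 fold change 0.48 in 4OHT, 95% interval -0.1 to 1.06), which is named to complete the family after its values were seen, 3 of 4 INK4 genes were called higher in 4OHT than in cAMP and 0 lower, beside 4.04% and 4.35% of all tested genes. Each of these 3 calls was lost without single libraries, as given for each gene.

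The order of the levels depended on the length used. Per kb of merged exon, Ccne1 led in cAMP (37.3 to 37.6 CPM per kb), ahead of Ccnd3 (27.1 to 28.3) and Cdkn1a (22.4 to 25.9). In 4OHT the ranges of Ccne1 (40.4 to 41.1) and Ccnd3 (39.5 to 41.1) overlapped, and Cdkn1a followed at 34.6 to 37.7. In PD+LY Ccnd3 led (31.6 to 35.8), and Cdkn1a (23.7 to 25.4) and Ccne1 (23.3 to 24.9) overlapped behind it. Per kb of the longest transcript, a length chosen for this after the data were seen, Ccnd3 led in all 3 groups, at 61.5 to 64.5 in cAMP, 89.9 to 93.5 in 4OHT and 71.8 to 81.4 in PD+LY, against 49.6 to 50.1, 53.7 to 54.6 and at most 33.2 for Ccne1. Under both lengths Ccnd1 stood at rank 9 in PD+LY (3.15 to 3.9 per kb of merged exon), after rank 5 in cAMP (12.0 to 13.1) and 4OHT (10.8 to 11.5) by merged exons and rank 4 by the longest transcript. Cdkn2a was at rank 8 in cAMP and rank 5 in PD+LY under both lengths, but by merged exons it overlapped Cdkn2b in cAMP and Cdkn1c in PD+LY. Ccne2 was last under both, at 1.11 to 1.53 CPM per kb of merged exon. Other neighbours that overlapped by merged exons were Cdkn1b with Ccnd1 and Cdkn1c with Ccnd2 in cAMP, Cdkn2b with Cdkn2a and Cdkn2a with Ccnd2 in 4OHT, and Cdkn2b with Ccnd2 and Ccnd2 with Ccnd1 in PD+LY.

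The genes around the switch were taken from 9 lists of 70 genes, all tested. In 4OHT against cAMP 3 were called higher and 3 lower, in PD+LY against 4OHT 11 and 9, and in PD+LY against cAMP 9 and 14, read against the shares of tested genes given above. These 6, 20 and 23 calls depended on the libraries: 0 of the 6 were left without cAMP library 1, 4OHT library 1 or 4OHT library 2, 3 were called without cAMP library 2, and 12 without either PD+LY library. The 20 were 6 and 2 without 4OHT library 1 and 2, and the 23 were 13 and 9 without cAMP library 1 and 2. Of 7 genes for G1 kinases and their activators, Cdk6, the partner of D-type cyclins beside Cdk4, had 13.0 and 9.65 CPM in cAMP, 6.87 and 7.95 in 4OHT, and 5.2 and 2.58 in PD+LY. Cdk6 fell 2.91-fold from cAMP to PD+LY (log2 fold change -1.54, SE 0.29, edgeR adjusted p = 0.00254) and 1.92-fold from 4OHT (-0.94, SE 0.30, adjusted p = 0.0419). Cdk2, the partner of E-type cyclins, was the other call of this list, higher in PD+LY than in cAMP (0.36, SE 0.10, edgeR adjusted p = 0.0212). The second call of Cdk6 was lost without either 4OHT library or PD+LY library 2, at log2 fold changes of -1.53 to -0.51 over the alternatives and edgeR adjusted p up to 0.221, and that of Cdk2 without either cAMP library or PD+LY library 2 (0.26 to 0.47, adjusted p up to 0.137).

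The retinoblastoma gene Rb1, the substrate that keeps E2F silent, read 39.4 and 28.9 CPM in cAMP, 33.6 and 35.9 in 4OHT, and 73.2 and 49.0 in PD+LY. Rb1 rose 1.76-fold from 4OHT to PD+LY (log2 fold change 0.81, SE 0.19, edgeR adjusted p = 0.00945) and 1.79-fold from cAMP (0.84, SE 0.19, adjusted p = 0.00663), and its relative Rbl1 (p107) rose from cAMP to PD+LY (0.47, SE 0.12, adjusted p = 0.0164). The Rb1 calls were lost without either 4OHT library and without cAMP library 2 (edgeR adjusted p up to 0.0813 and 0.0546). Without PD+LY library 1 the Rb1 log2 fold changes were 0.49 and 0.53 and without PD+LY library 2 they were 1.08 and 1.11. The call of Rbl1 was lost without either cAMP library (adjusted p up to 0.09). Of 10 E2F and DP genes, 0 were called higher and 1 lower in 4OHT against cAMP, and with the inhibitors these were 3 and 1 against 4OHT and 2 and 2 against cAMP. The shares of tested genes called higher and lower were 4.04% and 4.35%, 10.7% and 12.1%, and 12.1% and 13.7%. The call in 4OHT was E2f3, an activating E2F, which had 44.1 and 41.8 CPM in cAMP, 28.0 and 26.4 in 4OHT, and 46.7 and 47.5 in PD+LY. This is a fall of 0.66 on the log2 scale (log2 fold change -0.66, SE 0.12, edgeR adjusted p = 0.00625) and a rise of 0.79 (SE 0.12, adjusted p = 0.000701). Tfdp2, a DP partner of E2F, was called higher in PD+LY than in 4OHT (0.38, SE 0.10, edgeR adjusted p = 0.0161), and E2f5 and E2f1 were called higher in PD+LY than in cAMP (0.49 and 0.41, adjusted p = 0.0168 and 0.0262). The E2f3 rise held in 13 of 13 other analyses, and its fall was lost without cAMP library 1 or either 4OHT library (edgeR adjusted p up to 0.102). Tfdp2 lost its call without either 4OHT library (up to 0.172), E2f5 without cAMP library 2 or PD+LY library 1 (0.32 to 0.64, up to 0.132), and E2f1 without any library but PD+LY library 1 (0.24 to 0.56, up to 0.162).

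Among 7 genes for the turnover of cyclins and inhibitors, Skp2, the ubiquitin ligase subunit that targets p27, was called higher in PD+LY than in 4OHT (0.41, SE 0.10, edgeR adjusted p = 0.0156). In the same comparison Fbxw7, the subunit that targets cyclin E, and Gsk3b, a kinase that marks cyclin D1 for export and decay, were called higher (0.40 and 0.50, adjusted p = 0.0411 and 0.0406). Cul1, the scaffold of these ligases, was called lower in 4OHT than in cAMP (-0.38, SE 0.10, edgeR adjusted p = 0.0411). All 4 calls were lost without either 4OHT library, and also without PD+LY library 2 for Fbxw7, PD+LY library 1 for Gsk3b and either cAMP library for Cul1, with edgeR adjusted p up to 0.198 for Skp2, 0.29 for Fbxw7, 0.255 for Gsk3b (log2 fold changes 0.22 to 0.75) and 0.332 for Cul1. Of the 12 E2F-driven genes of DNA synthesis, 0 were called in 4OHT against cAMP, beside 4.04% of tested genes higher and 4.35% lower. Tyms (thymidylate synthase) was called higher in PD+LY than in 4OHT (0.55, SE 0.12, edgeR adjusted p = 0.00731), beside 10.7% of tested genes higher and 12.1% lower. Mcm5 (a helicase subunit) was called lower in PD+LY than in cAMP (-0.40, SE 0.10, edgeR adjusted p = 0.0124), beside 13.7% of tested genes lower and 12.1% higher. The medians of that list were -0.07, 0.12 and 0.07 in the 3 comparisons. Of 10 genes of S, G2 and mitosis, 1 was called lower in 4OHT (Bub1, -0.50, edgeR adjusted p = 0.0133), 1 in PD+LY against 4OHT (Ccnb2, -0.31, adjusted p = 0.0236) and 4 in PD+LY against cAMP (Mki67, Top2a, Bub1 and Cdc20), with 0 higher. The shares of all tested genes called lower were 4.35%, 12.1% and 13.7% in these 3 comparisons. Bub1, a spindle checkpoint kinase, and Cdc20, an activator of the anaphase promoting complex, were lower by 0.54 and 0.52 in the last comparison (log2 fold changes -0.54 and -0.52, edgeR adjusted p = 0.00299 and 0.0104). The call of Bub1 in PD+LY against cAMP held in 13 of 13 other analyses. Tyms was lost without 4OHT library 2 (edgeR adjusted p 0.11), Mcm5 and Cdc20 without cAMP library 2 (0.0714 and 0.0679, with Cdc20 at -0.32 without PD+LY library 1 and -0.75 without PD+LY library 2), Mki67 with the 2 groups only and without cAMP library 1, either 4OHT library or PD+LY library 2 (-0.41 to -0.18, up to 0.374), Top2a without cAMP library 1 (0.0677), Bub1 in 4OHT without cAMP library 1 or either 4OHT library (up to 0.174), and Ccnb2 without either 4OHT library or PD+LY library 1 (up to 0.19).

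Of 8 upstream regulators, 1 was called higher and 0 lower in 4OHT against cAMP, and with the inhibitors these were 3 and 1 against 4OHT and 3 and 2 against cAMP. Among all tested genes 4.04% were called higher and 4.35% lower in the first comparison. With the inhibitors these shares were 10.7% and 12.1% against 4OHT, and 12.1% and 13.7% against cAMP. Myc, a factor known to repress Cdkn1a and Cdkn2b and to activate Ccnd2, had 5.28 and 6.14 CPM in cAMP, 4.47 and 5.81 in 4OHT, and 2.24 and 2.87 in PD+LY. Myc fell 2.01-fold from 4OHT to PD+LY (log2 fold change -1.01, SE 0.27, edgeR adjusted p = 0.019) and 2.23-fold from cAMP (-1.16, SE 0.27, adjusted p = 0.00766). Trp53, which encodes p53, was called higher in PD+LY than in 4OHT (0.50, SE 0.11, edgeR adjusted p = 0.00715). It was also called higher in PD+LY than in cAMP (0.37, SE 0.11, edgeR adjusted p = 0.0249). The Trp53 call in PD+LY against cAMP was lost without either cAMP library or PD+LY library 2. With single libraries left out, its log2 fold change in that comparison was 0.19 to 0.54. From cAMP to 4OHT the log2 fold change of Trp53 was -0.12 (95% interval -0.36 to 0.11). RNA of Trp53 does not give the level of p53 protein. Klf4, a zinc finger factor known to activate Cdkn1a, was called higher in all 3 comparisons (0.43, 0.32 and 0.75, edgeR adjusted p = 0.0146, 0.0279 and 0.000134). Foxo4 was called lower in PD+LY than in cAMP (-0.43, SE 0.12, edgeR adjusted p = 0.0202). Of these calls that of Klf4 in PD+LY against cAMP held in 13 of 13 other analyses. The others were lost without at least 1 library: Myc without 4OHT library 2 or PD+LY library 1 (edgeR adjusted p up to 0.186) and, against cAMP, without cAMP library 2 (0.0566), Trp53 without either 4OHT library (log2 fold changes 0.32 to 0.66, adjusted p up to 0.0864), Foxo4 without either cAMP library or PD+LY library 1 (-0.6 to -0.27, up to 0.0929), and the other calls of Klf4 without either 4OHT library among others (up to 0.155 and 0.195).

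**Figure D4:**
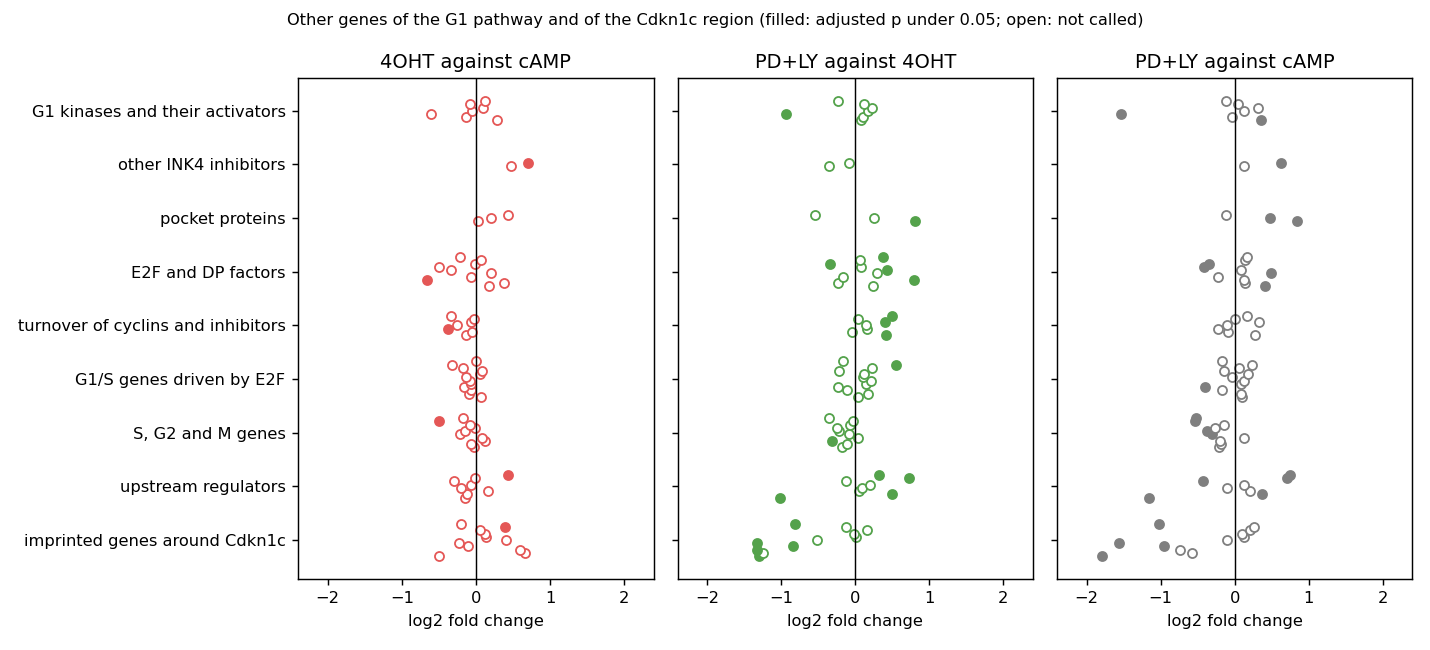
Each point is 1 gene of the 9 lists placed at its log2 fold change in 1 of the 3 comparisons (panels), filled for an adjusted p under 0.05 in edgeR and open otherwise. The 12 G1/S genes driven by E2F gather near 0 with 0, 1 and 1 filled points. Of the 11 genes listed around Cdkn1c, not all of them shown here to be imprinted, 5 and 4 are filled on the negative side in the PD+LY panels. Of all tested genes 12.1% and 13.7% were called lower there.

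Cdkn1c encodes p57, the CIP/KIP inhibitor that is imprinted and expressed from the maternal allele (chr7:143458339-143461050, minus strand). It had 13.3 and 21.1 CPM in cAMP, 16.7 and 20.4 in 4OHT, and 16.9 and 22.6 in PD+LY, and the 3 pairs overlapped. The log2 fold changes of Cdkn1c were 0.11 (95% interval -0.37 to 0.59), 0.09 (-0.39 to 0.56) and 0.19 (-0.28 to 0.67), so that changes beyond 1.59-fold upward against cAMP in PD+LY lay outside the interval. The sign of each turned with single libraries left out (-0.18 to 0.49, -0.14 to 0.28 and -0.09 to 0.58). In the annotation the opposite-strand gene Gm44732 covers 30.65% of the exon bases of Cdkn1c, but it is not among the counted genes.

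Cdkn1c lies in a cluster of imprinted genes, and 11 genes of that neighbourhood were looked at beside it. In 4OHT against cAMP 1 of them was called, Igf2, a growth factor that was higher in 4OHT (0.39, SE 0.10, edgeR adjusted p = 0.0335). Igf2 is named here after its values were seen. In the annotation it shares 62.83% of its exon bases with the gene Gm49394, which is not among the counted genes. In PD+LY 5 were called lower than in 4OHT (Kcnq1ot1, Slc22a18, Phlda2, Ascl2 and H19) and 4 lower than in cAMP, with 0 higher. Of all tested genes 12.1% and 13.7% were called lower in these 2 comparisons. Kcnq1ot1, the long noncoding RNA of the paternal allele that starts 165 kb from the Cdkn1c start and is known to silence Cdkn1c on that allele, had 17.7 and 13.6 CPM in cAMP, 9.54 and 12.5 in 4OHT, and 5.96 and 3.06 in PD+LY. Kcnq1ot1 fell 3.47-fold from cAMP to PD+LY (log2 fold change -1.79, SE 0.28, edgeR adjusted p = 0.000689) and 2.46-fold from 4OHT (-1.30, SE 0.28, adjusted p = 0.00707). Phlda2, a maternally expressed growth regulator 42.1 kb from the Cdkn1c start, fell 1.93-fold from cAMP to PD+LY (-0.95, SE 0.27, edgeR adjusted p = 0.0223), and Ascl2, a trophoblast factor 492 kb away, fell 2.94-fold (-1.56, SE 0.36, adjusted p = 0.00767). H19, a noncoding RNA of the maternal allele 883 kb away, was abundant at 1090 and 1260 CPM in cAMP, 971 and 1070 in 4OHT, and 582 and 576 in PD+LY, a 2.03-fold fall from cAMP to PD+LY (-1.02, SE 0.09, edgeR adjusted p = 1.69e-05). The call of Slc22a18 was lost without either 4OHT library or PD+LY library 2 (-1.9 to -0.92, edgeR adjusted p up to 0.12). The calls of H19 in both comparisons of PD+LY and of Kcnq1ot1 against cAMP held in 13 of 13 other analyses. That of Kcnq1ot1 against 4OHT was lost without 4OHT library 2 (log2 fold changes -1.85 to -0.89, edgeR adjusted p 0.0865), that of Ascl2 against cAMP without cAMP library 1 (0.0527) and against 4OHT without 4OHT library 2 or PD+LY library 1 (up to 0.188), that of Phlda2 against cAMP without cAMP library 2 or PD+LY library 2 (-1.21 to -0.6, up to 0.251) and against 4OHT in DESeq2 and without any 1 of the 4OHT or PD+LY libraries (up to 0.227), and that of Igf2 without any 1 cAMP or 4OHT library (up to 0.226). The counts do not tell the alleles apart.

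**Figure D5:**
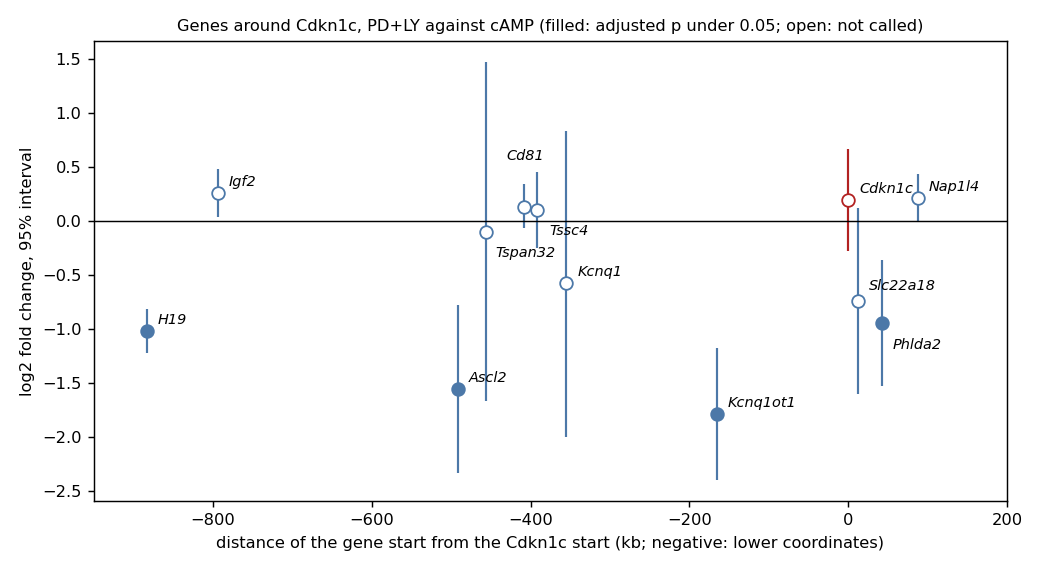
Log2 fold change with its 95% interval from cAMP to PD+LY for Cdkn1c (red) and 11 genes of its imprinted neighbourhood (blue), placed by the distance of each gene start from the Cdkn1c start in kb. Kcnq1ot1, Ascl2, Phlda2 and H19 are filled (adjusted p under 0.05 in edgeR) below 0, while Cdkn1c sits at 0.19 with an interval that crosses 0.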

How the data were processed

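RNA was sequenced from 6 libraries of follicle-enriched organoids in 3 groups of 2. According to the methods of the study, the authors trimmed reads with Trimmomatic, mapped them to mm10 (GRCm38) with HISAT2 allowing soft clipping and counted them with HTSeq without strand, although the library kit keeps strand. The deposited values are raw counts per gene symbol, not normalized. Of 25239 genes, 5586 had no count in any library. The libraries held 14898409 to 20637959 counts.

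Counts were analysed in R 4.3.3 with edgeR 4.0.16: filterByExpr (minimum count 10, minimum total 15) kept 15256 genes and removed 9983, TMM factors were 0.991 to 1.01, and all 6 libraries entered 1 quasi-likelihood fit with a term per group. P-values were adjusted by Benjamini-Hochberg over the tested genes, and a gene was called at an adjusted p under 0.05; a 2-fold change was noted besides. The common biological coefficient of variation was 0.105. Replicate libraries varied more than counting error, 8.32 times in cAMP, 4.55 times in 4OHT and 17.9 times in PD+LY (chi-square per degree of freedom). The 3 groups share 1 estimate of the spread, so the wider PD+LY pair also enters the test of 4OHT against cAMP. SE and 95% intervals come from the same test. Exact permutation tests were used for single sums and shares. Exon lengths, positions and overlaps come from GENCODE M21, promoter stretches from RefSeq. The alternatives were DESeq2 1.42.0, other scalings and filters, 2 groups only, the replicate number as a block and each library left out. The procedure was tested on simulated data. The 10 genes, the pathway and marker lists were chosen with earlier results of these data known; of each list, up to 4 called genes with the smallest adjusted p are named with values, with exceptions stated.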

Additional observations from a re-analysis of the deposited data

How the results depend on the processing

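For each of the 3 comparisons 13 alternatives were run (DESeq2, RLE size factors, library totals only, a filter of 10 counts in every library, no filter, 2 groups only, the replicate block, and each of the 6 libraries left out). Of the 390 log2 fold changes of the 10 genes under them, 349 kept their direction and their side of the threshold, 24 lost the threshold, 6 gained it and 11 changed sign. Of the 13 calls of these genes 5 held throughout, and of 43 calls of other named genes 8 did, none with a change of direction. With 1 library left out the number of the 10 genes called ranged from 0 to 4 in 4OHT against cAMP, from 2 to 5 in PD+LY against 4OHT and from 3 to 5 in PD+LY against cAMP, and the pathway genes called ranged from 0 to 12, 2 to 23 and 9 to 24. A 2-fold change asked for besides left 0, 1 and 2 of the 10 genes. The signs that turned with a library left out belong to values that were not called: Ccnd2 (-0.16 to 0.03) and Cdkn1b (-0.19 to 0.01) in 4OHT against cAMP, Cdkn1a in PD+LY against cAMP (-0.08 to 0.14), and Cdkn1c in the 3 comparisons (-0.18 to 0.49, -0.14 to 0.28 and -0.09 to 0.58). The cause was not tested. Ranks by level were repeated with the longest transcript as length, chosen after seeing the data. A fit with fewer libraries has less to estimate the spread from, and a group left with 1 library is assumed to vary like the others.

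Libraries with the same replicate number deviated from their group means with correlations of 0.0718, 0.207 and 0.0586 across genes, so the numbers were not taken as pairs. With the replicate block 4, 5 and 5 of the 10 genes were called, and 10 pathway genes in 4OHT against cAMP in place of 6 (11 with the 2 groups only). Over all genes the replicate block gave 2373, 4742 and 5057 calls in place of 1280, 3469 and 3925, and in 4OHT against cAMP the fit with no filter gave 2186 and that with 2 groups only 2307. Genes such as Ccne2, Cdkn2a and Cdkn2b, with 61 to 270 counts per library, had SEs of 0.19 to 0.24 on the log2 scale, and differences such as -0.52 for Cdkn2b and 0.43 for Cdkn2a from 4OHT to PD+LY did not pass the test. In DESeq2 888 genes of 4OHT against cAMP had no adjusted p.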
